A study of Zingiber officinale with 6 samples.

Results

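Cytokinin dehydrogenases are flavin enzymes that cleave the side chain of cytokinins and thereby remove the active hormone. The genes described here are LOC121984891, annotated as cytokinin dehydrogenase 5-like, and LOC121993700, annotated as cytokinin dehydrogenase 7-like. They are 2 of the 55601 genes in the deposited tables, and were chosen by gene ID because their levels had already been seen to differ between the groups in these libraries. Their difference between the groups is therefore given as a description, with no test. RNA-seq was performed on leaf blades of 3 ginger plants (Zingiber officinale, "Laiwu" variety, raised from tissue culture) exposed for 21 days to the volatile organic compounds of Pythium oligandrum GAQ1 (Po-VOCs), and of 3 control plants, with 1 library per plant. Exposed plants stood in pots with holes in the base, on sealed jars in which the oomycete grew on V8 agar, and control plants stood on jars that held V8 agar alone. The roots met the whole volatile mixture, and no single compound was separated. Whole leaf blades were sequenced, so a change in the RNA of a cell and a change in the number of cells that express a gene cannot be told apart. According to the methods, the blades came from the uppermost leaves of the plants. Whether the stage of these leaves differed between the groups was not tested.

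Cytokinins are adenine-derived hormones that promote cell division in shoots and delay the ageing of leaves. Active bases are released from their nucleotides by LOG enzymes. They are sensed by histidine kinases with a CHASE domain, and the signal passes through phosphotransfer proteins to type-B response regulators, which switch on genes that include the type-A response regulators. In Arabidopsis, genes for type-A response regulators and for several cytokinin dehydrogenases are transcribed more when cytokinin is supplied, and both act against the signal. Zeatin, the cytokinin that the study measured in ginger leaves, is a known substrate of these enzymes. The hormone measurements came from plants of a separate experiment, so no plant has both a hormone value and an expression value, and the concentrations are not used here.

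LOC121984891 lies on chromosome 5B of the Zo_v1.1 assembly, from 88949946 to 88952513. It is annotated with 1 protein, and its FPKM values correspond to a transcript length of 1884 bases. LOC121993700 lies on chromosome 6A, from 8739165 to 8741120, also with 1 annotated protein, and its values correspond to 1738 bases. The study followed the first gene by quantitative PCR in the same RNA samples. The primer pair is shown because it defines the stretch of the 5-like transcript that the PCR reads, and it is printed in lower case throughout since no base is singled out. The position of the primers within the gene, and their match to the 5-like gene on chromosome 5A, were not analysed here.
LOC121984891 forward primer: gtgacgtgctcgaatgaggaaaac
LOC121984891 reverse primer: cctcgccctctgtggagc
The forward primer has 24 bases, of which 12 are G or C, and the reverse primer has 18 bases, of which 13 are G or C.

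The total count on genes was 13695463 to 14662442 per library, with overlapping ranges in the groups. In a principal-component analysis of the 500 most variable genes, the groups separated on PC1 (58.0% of the variance), and control replicate 3 stood apart from the other plants on PC2 (28.5%), at -58.1 against -4.17 to 35.6. Product names were held only for genes on the study's list of upregulated genes, so nuclear leaf markers could not be looked up. Only 4 plastid genes were examined. The gene psbA was counted in every library at 5.98 to 57.2 FPKM and rbcL at 0.338 to 6.56 FPKM, with the highest value of both in Po-VOCs replicate 3. The genes psaA and psbD were at 0 in 4 of the 6 libraries, and reached at most 0.0316 and 0.201 FPKM in the others. Plastid transcripts are poorly captured by libraries that select polyadenylated RNA, so these values cannot decide whether the leaf label is right.

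LOC121984891 had low levels in control plants and was among the more abundant transcripts in exposed plants. Control replicates 1, 2 and 3 had 1.17, 7.05 and 2.18 FPKM, whereas Po-VOCs replicates 1, 2 and 3 had 90.3, 45.6 and 47.4 FPKM. The groups did not overlap, and the lowest exposed plant was 6.47 times the highest control plant. The mean rose from 3.47 ± 3.14 FPKM (SD, n = 3) to 61.1 ± 25.3 FPKM (SD, n = 3), and edgeR fitted a log2 difference of 4.12 ± 0.66 (standard error). Among the 41508 genes tested, 38.1% had a lower mean FPKM than LOC121984891 in control plants and 96.1% had a lower one in exposed plants. Behind these values stood 31, 190 and 58 counts in the control plants, and 2330, 1259 and 1254 counts in the exposed plants.

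In each group, some plants differed from one another by more than counting error. The 190 counts of control replicate 2 have an exact 95% Poisson interval of 164 to 219, and the 31 counts of control replicate 1 one of 21.1 to 44.0, where the intervals cover counting error only. In exposed plants, replicate 1 had an interval of 2236 to 2427 counts, while replicates 2 and 3 were alike, with intervals of 1190 to 1331 and 1186 to 1325. The coefficient of variation of LOC121984891 among control plants was 90.7%, against a median of 19.0% over 4963 genes of similar mean level, and 97.6% of those genes varied less. Among exposed plants it was 41.4% against a median of 19.2% over 947 genes. Control replicate 2 set the size of the difference, since the fitted log2 fold change was 5.17 without it and between 3.72 and 4.29 without any one of the other libraries. Without control replicate 3, which stood apart on PC2, it was 3.86.

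LOC121993700 was expressed far more weakly. In the same order of plants, it had 0.164, 0.483 and 0.366 FPKM in the control group and 2.18, 4.16 and 1.64 FPKM in the exposed group. The groups did not overlap here either, with the lowest exposed plant at 3.39 times the highest control plant. The mean rose from 0.338 ± 0.161 FPKM (SD, n = 3) to 2.66 ± 1.33 FPKM (SD, n = 3), and the fitted log2 difference was 2.95 ± 0.52 (standard error). The counts were 4, 12 and 9 in control plants and 52, 106 and 40 in exposed plants. The intervals of the 3 control plants overlapped (1.09 to 10.2, 6.20 to 21.0 and 4.12 to 17.1 counts), so control plants could not be ordered at this depth. Among exposed plants, replicate 2 lay above the others, at 86.8 to 128 counts against 38.8 to 68.2 and 28.6 to 54.5. Of the genes tested, 2.08% had a lower mean than LOC121993700 in control plants and 30.2% had a lower one in exposed plants. Its coefficient of variation was 47.7% among control plants, near the median of 45.8% for 853 genes of like level, and 49.9% among exposed plants, against a median of 28.6% for 4387 genes. Leaving out single libraries moved the log2 fold change between 2.48, without Po-VOCs replicate 2, and 3.30, without control replicate 2, and it was 2.99 without control replicate 3.

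LOC121984891 was highest in Po-VOCs replicate 1, whereas LOC121993700 was highest in Po-VOCs replicate 2. The ratio of the 5-like to the 7-like FPKM was 7.15, 14.6 and 5.95 for control plants 1 to 3, against 41.3, 10.96 and 28.9 for exposed plants 1 to 3. Po-VOCs replicate 2 thus lay within the range of the control plants, and the groups overlapped in this ratio. Whether the genes differed in the size of their change was not tested. Both genes met the study's thresholds for differential expression (adjusted p below 0.05, a change of more than 2-fold and a mean above 1 FPKM), which 1.09% of all genes tested met upwards, and their FPKM did not overlap between the groups, which held upwards for 14.5% and in either direction for 26.9% of all genes tested. These counts follow from the way the genes were chosen, and nothing is read from them.

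**Figure D1:**
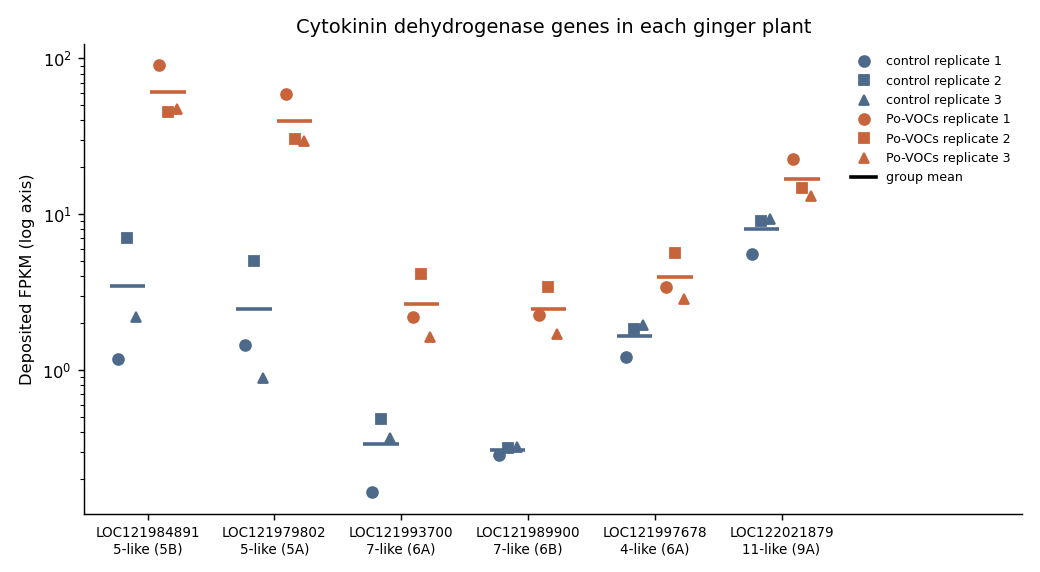
FPKM (log axis) of the 6 cytokinin dehydrogenase genes on the study's list of upregulated genes, in each of the 3 control and 3 Po-VOC-exposed plants. Bars mark the group means. LOC121984891 lies between 1.17 and 7.05 FPKM in control plants and between 45.6 and 90.3 FPKM in exposed plants, and LOC121993700 between 0.164 and 0.483 and between 1.64 and 4.16 FPKM.

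Each gene has a counterpart of the same product name on the other chromosome of the same number. LOC121979802, also cytokinin dehydrogenase 5-like, lies on chromosome 5A from 93079743 to 93082267, and its span of 2525 bp is close to the 2568 bp of LOC121984891. LOC121989900, also cytokinin dehydrogenase 7-like, lies on chromosome 6B from 6991240 to 6993233, and spans 1994 bp against 1956 bp. Whether the pairs are alleles or separate genes was not analysed, and no sequences were compared. How reads that fit both copies were counted is not given in the sources used here, and the plants were of another variety than the sequenced "Zhangliang" genome, so the split of counts between the copies is uncertain.

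The counterparts showed nearly the same profile over the plants. LOC121979802 was at 1.44, 5.04 and 0.890 FPKM in the control group and at 58.7, 30.6 and 29.5 FPKM in the exposed group, in replicate order. As with LOC121984891, control replicate 2 was the highest control plant and Po-VOCs replicate 1 the highest exposed plant. LOC121989900 was at 0.284, 0.318 and 0.322 FPKM in control plants and at 2.25, 3.42 and 1.70 FPKM in exposed plants, where replicate 2 was the highest, as with LOC121993700. The fitted log2 fold changes were 3.98 (standard error 0.65) for LOC121979802 and 2.96 (standard error 0.38) for LOC121989900. Both counterparts are on the study's list of upregulated genes, which was made from these libraries, so their direction is not independent evidence.

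The share of each copy in its pair was measured within each plant. The share itself was not used to choose the genes, but the levels it is computed from were. Both copies of each pair come from the study's list of upregulated genes, which favours a similar share in the groups. The shares and their p-values are therefore given as a description. LOC121984891 made up 44.9%, 58.3% and 71.0% of the summed FPKM of the 5-like pair in the control plants, in replicate order, and 60.6%, 59.8% and 61.7% in the exposed plants. The mean share was 58.05% ± 13.1 (SD, n = 3) in control plants and 60.7% ± 0.924 (SD, n = 3) in exposed plants, a difference smaller than the spread among control plants (exact two-sided permutation test, p = 0.7, where the smallest p that 3 plants against 3 allow is 0.1). In control replicate 1 the share by counts was 45.6%, with an exact 95% binomial interval of 33.5% to 58.1%, and in control replicate 3 it was 71.6%, with an interval of 60.5% to 81.1%, so these control plants differed by more than counting error. The share of LOC121993700 in the 7-like pair averaged 50.02% ± 12.1 in control plants and 51.1% ± 3.30 in exposed plants (SD, n = 3 each; exact two-sided permutation test, p = 0.9). It rested on 11 to 20 counts per control plant, and the intervals of all plants overlapped. For both pairs the sign of the difference was not stable, being negative without control replicate 1 (-3.95 percentage points for the 5-like and -5.64 for the 7-like pair) and, for the 7-like pair, without Po-VOCs replicate 2 (-0.84).

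**Figure D2:**
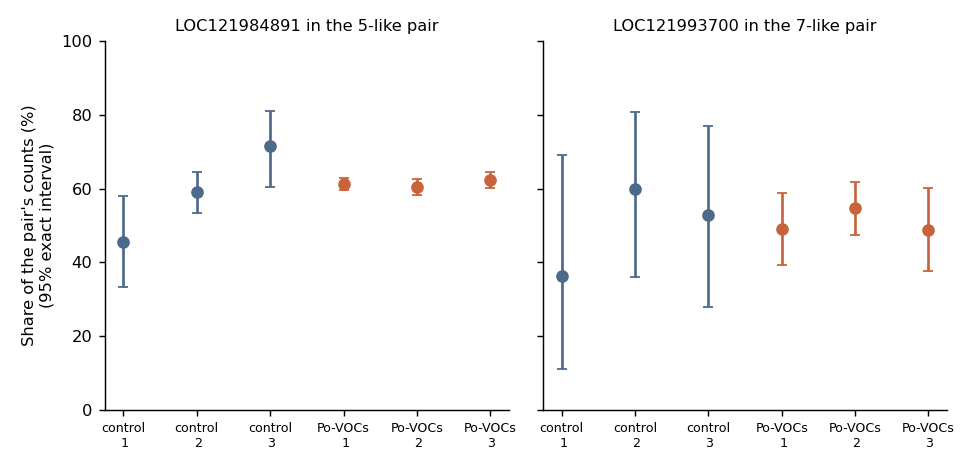
Share of LOC121984891 (left) and LOC121993700 (right) in the counts of its pair, in percent, for each plant, with exact 95% binomial intervals. The 3 exposed plants lie between 60.5% and 62.4% in the 5-like pair, inside the wider range of 45.6% to 71.6% in the control plants.

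The supplementary rows held here list 6 genes with the cytokinin dehydrogenase domain, all upregulated in the study's own analysis. Besides the pairs these are LOC121997678 (4-like, chromosome 6A, 117787661 to 117790087) and LOC122021879 (11-like, chromosome 9A, 30577956 to 30581106). The paper counts more genes with this domain in the genome, and those outside the rows held were not analysed here. The thresholds were met upwards by 4 of the 6 and downwards by 0, using the quasi-likelihood test of edgeR. Of all 41508 genes tested, 877 (2.11%) met them, 452 (1.09%) upwards and 425 (1.02%) downwards. The median log2 fold change was 2.95 over the 6 genes and 0.01 over all genes tested. The direction and size of these changes were fixed by the choice of the genes from these libraries, and nothing is read from that contrast. The remaining 2 genes moved least. LOC121997678 was at 1.67 ± 0.402 FPKM in control and 3.97 ± 1.46 FPKM in exposed plants (SD, n = 3 each), and LOC122021879 at 8.00 ± 2.10 and 16.9 ± 5.16 FPKM, with adjusted p of 0.0991 and 0.0788 in edgeR's test. All 6 were called by DESeq2, which called 5.56% of the genes it tested, 3.02% upwards. The edgeR calls depended on single libraries. None of the 6 was called when any one of 4 libraries was omitted (control plant 1 or 2, or exposed plant 2 or 3). In those fits edgeR called 91, 4, 37 and 33 genes in all, in that order. Omitting control plant 3 left 2 calls of 1052 in all, and omitting exposed plant 1 left 4 of 1399. In each of these fits all 6 genes had an unadjusted p below 0.05, as did 6025 to 9224 genes in all. The 6 were chosen on this contrast, so nothing is read from that.

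The order of the levels changed between the groups. This restates differences in genes chosen on these libraries, and nothing is read from it. In control plants LOC122021879 had the highest mean of the 6, followed by LOC121984891, LOC121979802 (2.46 ± 2.26 FPKM), LOC121997678, LOC121993700 and LOC121989900 (0.308 ± 0.0210 FPKM). Neighbours in that order overlapped in their plants, except that every control plant had more of LOC121997678 than any had of LOC121993700. In exposed plants LOC121984891 and LOC121979802 (39.6 ± 16.6 FPKM) led with overlapping ranges, and every exposed plant had more of both than any plant had of LOC122021879. LOC121997678, LOC121993700 and LOC121989900 (2.46 ± 0.877 FPKM) lay below LOC122021879 in every exposed plant, with ranges that overlapped one another.

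The summed level of the 6 genes was 9.85, 23.9 and 15.0 FPKM in the control plants, in replicate order, and 180, 104 and 96.1 FPKM in the exposed plants. Other genes with this domain are not in the sum, so it is not the level of the whole family. LOC121984891 alone accounted for 11.9% to 29.5% of that sum in control plants and for 43.8% to 50.3% in exposed plants. The 5-like pair together accounted for 20.5% to 50.7% and for 73.1% to 83.0%. LOC122021879 contributed 38.2% to 62.0% in control plants and 12.7% to 14.2% in exposed plants. LOC121993700 stayed a minor part of the sum in both groups, with 1.67% to 2.44% in control and 1.22% to 3.99% in exposed plants. The rise of the sum and the shift in shares likewise follow from the choice of the genes, and nothing is read from them.

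**Figure D3:**
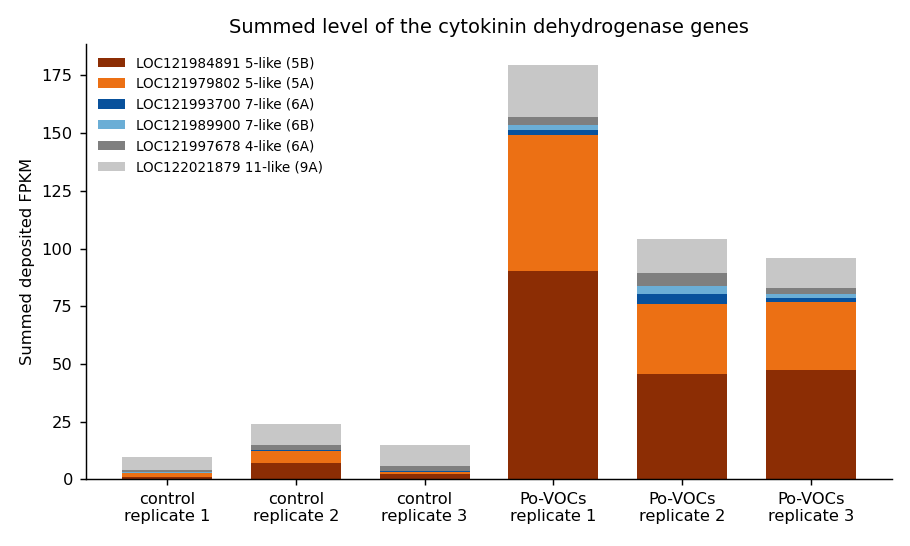
Summed FPKM of the 6 cytokinin dehydrogenase genes on the study's list of upregulated genes in each plant, stacked by gene. The sum is 9.85 to 23.9 FPKM in control plants and 96.1 to 180 FPKM in exposed plants, and the 5-like pair fills 73.1% to 83.0% of the bar in exposed plants.

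The 5 protein-coding genes on either side of LOC121984891, LOC121993700 and their counterparts were examined, 40 genes in all, of which 33 had enough counts for edgeR's test. None of the 33 met the thresholds, which 2.11% of all genes tested met, with fitted log2 fold changes of -0.79 to 1.18 and a median of 0.10. An unadjusted p below 0.05 was found for 9 of them (27.3%), against 20.2% of all genes tested. The dehydrogenase genes had been chosen for their difference and their neighbours had not, so nothing is read from the contrast between them. DESeq2 called 1 of them, as did limma on log2(FPKM + 0.1), and limma on log2(FPKM + 1) called 0. This was LOC121995738 (PRA1 family protein F3-like, chromosome 6A, 8741544 to 8744468), which begins 423 bp beyond LOC121993700 and is singled out after its values were seen. It was at 2.69 ± 0.447 FPKM in control and 5.97 ± 0.631 FPKM in exposed plants (SD, n = 3 each), 1.14 ± 0.26 higher on the log2 scale (estimate ± standard error; adjusted p = 0.0713 in edgeR's quasi-likelihood test, 0.0138 in DESeq2, and 0.0472 to 0.221 over the other alternatives). The gene at the matching place beside LOC121989900 on chromosome 6B, LOC121989901, begins 430 bp beyond it and was 0.82 ± 0.25 higher on the same scale (adjusted p = 0.132 in edgeR's test). With single libraries left out, edgeR called at most 1 neighbour, LOC121991831 without Po-VOCs replicate 1.

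**Figure D4:**
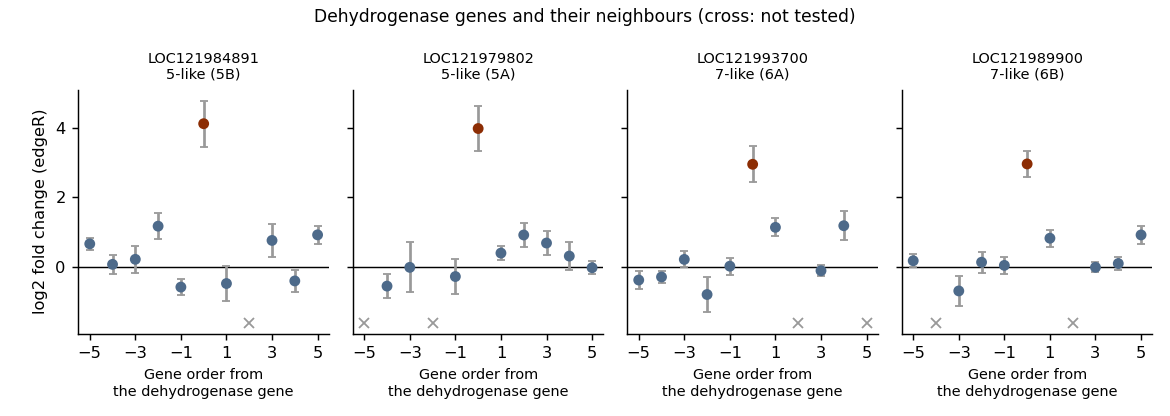
Fitted log2 fold change (Po-VOCs over control, edgeR) with its standard error, for each dehydrogenase gene at position 0 and the 5 protein-coding genes on either side, by gene order along the chromosome. The neighbours tested lie between -0.79 and 1.18, and the dehydrogenase genes between 2.95 and 4.12.

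Likeness of profile was measured as the root mean square difference of log2 CPM over the 6 plants, after each gene had been centred on its own mean. The difference between the groups is part of this measure, so genes with a change of similar size rank close. The members were chosen for that difference, and nothing is read from the likeness. Among the other genes tested, LOC121979802 was the third closest to LOC121984891, at 0.44. The closest outside the 6 dehydrogenase genes were LOC121968186 (MOB kinase activator-like 1A) at 0.42, LOC122041349 (auxin-induced protein 5NG4-like) at 0.43 and LOC122035140 (expansin-A4-like) at 0.45. Expansins loosen plant cell walls. LOC122035140 had 0.396, 4.67 and 1.102 FPKM in control plants and 49.95, 54.9 and 31.7 FPKM in exposed plants, with control replicate 2 again the highest control plant. LOC121968186 rested on only 8 counts over the control plants.
For LOC121993700, the closest genes outside the 6 dehydrogenase genes were LOC122012458 (CTP synthase 1-like) at 0.24, LOC121984790 (auxin-responsive protein IAA10-like) at 0.32 and LOC121978545 at 0.32. LOC121978545 has no description here, so whether it carries the dehydrogenase domain is not known, and it rested on only 7 counts over the control plants. The counterpart LOC121989900 ranked 5 at 0.34. CTP synthase makes a building block of RNA. LOC122012458 was at 1.34, 1.90 and 1.83 FPKM in control plants and at 8.91, 21.2 and 7.53 FPKM in exposed plants, with Po-VOCs replicate 2 the highest, as in LOC121993700. The 5-like and 7-like members were 1.12 apart from each other.

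Of the other steps of the cytokinin pathway, 9 genes could be identified by name. All come from the study's list of upregulated genes, so their common direction was fixed by that list. The thresholds were met upwards by 4 of the 9 in edgeR's quasi-likelihood test and downwards by 0, beside 1.09% of all genes upwards, with a median log2 fold change of 2.03. DESeq2 called all 9, beside 3.02% of the genes it tested upwards. Omitting control plant 2, or exposed plant 2 or 3, left 0 edgeR calls, beside 4, 37 and 33 over all genes. Omitting control plant 1 left 2, beside 91 over all genes. Omitting control plant 3 or exposed plant 1 left 3, beside 1052 and 1399 over all genes. All 9 genes had an unadjusted p below 0.05 in each fit, as did 6025 to 9224 genes in all. Nothing is read from these counts or from the adjusted p-values of the single genes below, since the 9 come from the list.
Among the LOG enzymes, which release active cytokinin, LOC122045229 (LOG3-like) met the thresholds. LOC122045229 had 0.199 ± 0.0866 FPKM in control and 1.37 ± 0.429 FPKM in exposed plants (SD, n = 3 each) on 12 and 82 counts (adjusted p = 0.0472 in edgeR's test). It was not called when any one of the 6 libraries was left out (adjusted p of 0.0584 to 0.186 in edgeR's test). The same held without the filter on low counts (0.0514) and with replicate number as a block (0.0856). In limma on log2(FPKM + 1), its log2 fold change of 0.97 fell below the threshold. LOC122034430 (LOG1-like) had 8.73, 3.36 and 2.35 FPKM in control plants and 26.1, 12.9 and 21.2 FPKM in exposed plants, with an adjusted p of 0.0943 in edgeR's test. The third, LOC122031905 (LOG1-like), had 0.442 ± 0.223 and 2.82 ± 2.28 FPKM with an adjusted p of 0.0965 in the same test.
Of the genes for CHASE-domain histidine kinases, LOC122038562 met the thresholds, with 1.48 ± 0.306 FPKM in control and 4.79 ± 1.23 FPKM in exposed plants (1.67 ± 0.25 on the log2 scale, adjusted p = 0.0294 in edgeR's test). LOC121986306 was 1.34 higher on that scale, with an adjusted p of 0.0517 in the same test. The phosphotransfer gene LOC121991984 and the type-B regulator gene LOC122000834 (ORR23-like) had log2 fold changes of 1.69 and 1.89, with adjusted p of 0.0896 and 0.0985 in edgeR's test.
The type-A response regulator genes had the smallest adjusted p of the 9, a ranking among genes that were listed from this same contrast. LOC122026697 (ORR1-like) was at 5.67, 9.40 and 7.99 FPKM in control plants and at 40.8, 41.8 and 31.1 FPKM in exposed plants, 2.29 ± 0.22 higher on the log2 scale (adjusted p = 0.0132 in edgeR's test). LOC121968143, also ORR1-like, was at 8.55, 12.3 and 12.5 FPKM in control plants and at 45.2, 51.5 and 42.0 FPKM in exposed plants, 2.05 ± 0.20 higher with the same adjusted p. Their coefficients of variation were 10.4% to 24.5% within the groups, against 41.4% to 90.7% for LOC121984891. In control replicate 2, where LOC121984891 stood highest among control plants, LOC122026697 was also the highest control value, with 125 counts against 105 in control replicate 3. LOC121968143 had 166 counts in each of these plants. Counting error was not assessed for either gene.

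**Figure D5:**
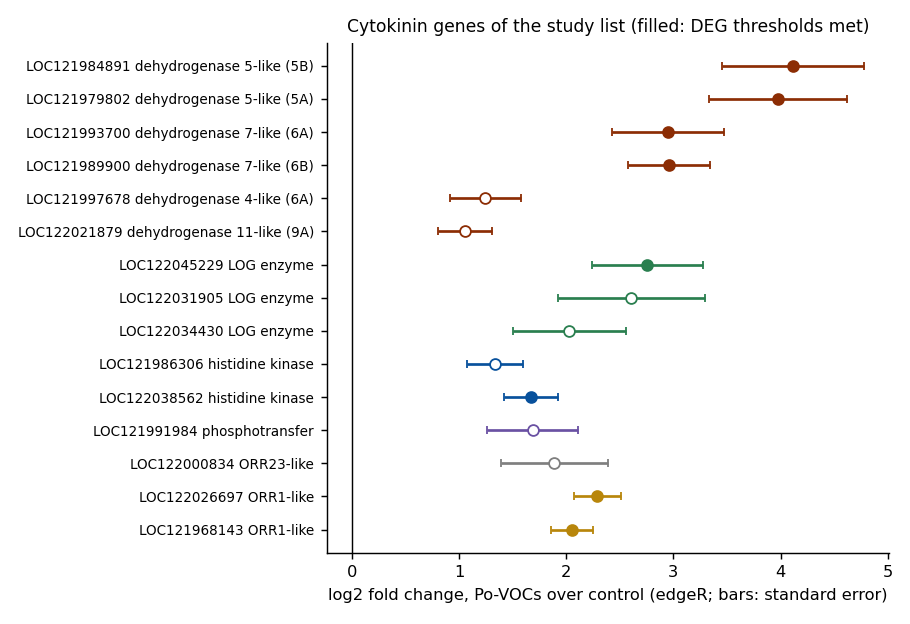
Fitted log2 fold change (Po-VOCs over control, edgeR) with its standard error for the 6 dehydrogenase genes and the 9 other cytokinin genes of the study's list, with filled points where the thresholds were met. LOC121984891 is at 4.12, LOC121993700 at 2.95, and the other pathway genes lie between 1.34 and 2.76.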

How the data were processed

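Leaf blades of 3 control and 3 Po-VOC-exposed plants were compared, 1 library per plant, with groups and replicate numbers taken from the sample labels. According to the methods, the authors trimmed reads with Trimmomatic, mapped them with HISAT2 to Zo_v1.1 and counted them per gene with HTSeq, and deposited raw counts. FPKM values, also deposited by the authors, were computed with Cufflinks according to the same methods. No tool version, counting mode or strand setting is stated in the sources used here. All 55601 gene IDs were found in the RefSeq table of Zo_v1.1. Product and domain names came from the 1517 supplementary rows held, whose fold changes and p-values were not used.

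In R 4.3.3, edgeR 4.0.16 kept 41508 genes by filterByExpr (minimum count 10, minimum total 15), scaled them by TMM and fitted the quasi-likelihood test without covariates, with Benjamini-Hochberg adjustment over all genes tested. Standard errors were taken as |log2 fold change|/√F. Log2 CPM used a prior count of 2. DESeq2 1.42.0 and limma 3.58.1 served as alternatives, and the code was tested on simulated data. Intervals and permutation tests were computed in Python with scipy 1.17.1. Members and gene lists were chosen with earlier results of these data known, and the neighbouring genes were added after the files had been seen. Named genes are the 2 members, the other genes of the family, the cytokinin genes of the rows held, and the 3 closest profiles per member. Protein and promoter sequences were not analysed here, so the lists were not completed by sequence.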

Additional observations from a re-analysis of the deposited data

How the results depend on the processing

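The fitted log2 fold changes of LOC121984891 and LOC121993700 were positive under every alternative run. That of LOC121993700 was 1.40 in limma on log2(FPKM + 1), where the pseudocount exceeds its control level, and ranged from 2.48 to 3.30 with single libraries left out. That of LOC121984891 ranged from 3.72 to 5.17. Numbers of calls depended on the model. DESeq2, fitted without a block, called 3089 genes and edgeR 877, and DESeq2 called 6 of the 6 dehydrogenase genes and 9 of the 9 other cytokinin genes, as did edgeR at an adjusted p below 0.1, where 2134 genes were called in all. With single libraries left out, edgeR called 4 (without control replicate 2) to 1399 genes (without Po-VOCs replicate 1), 0 to 4 of the dehydrogenase genes and 0 to 3 of the other cytokinin genes. The shares of LOC121984891 and LOC121993700 in their pairs differed by -3.95 to 9.12 and by -5.64 to 6.18 percentage points. Same-numbered plants correlated at -0.02, 0.02 and -0.10 in their deviations from the group means, and differently numbered plants at -0.21 to 0.18. With 3 plants per group, these values cannot decide whether the replicate numbers pair the plants. With the replicate block, edgeR called 136 genes, 0 of the 6 dehydrogenase genes and 2 of the other cytokinin genes. All 6 dehydrogenase genes had an unadjusted p below 0.05 in that fit, as did 7181 genes in all. The log2 fold changes of the members were then 4.41 and 2.94. For 21 other named genes under these alternatives, the gene stayed on the same side of the thresholds, called or not, in 207 fits, lost its call in 55 and gained one in 11. A family drawn at 40% identity was not run, since no protein sequences were used. Counts of 4 to 12 per control plant limit what can be said of LOC121993700.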
